A study of Mus musculus with 4 samples.

Results

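The B-cell receptor signalling components described here were 9 genes, Cd79a, Cd79b, Cd22, Cd72, Blnk, Btk, Syk, Lyn and Blk, taken by their symbols from the 31053 genes listed for every library. Bone marrow mononuclear cells were profiled from 4 mice, 2 that lacked Toll-like receptor 9 (TLR9-/-) and 2 wildtype mice (WT), all on the C57BL/6 strain, with 1 library for each mouse. Femurs and tibias were flushed, the cells that collected at the interface of a Ficoll gradient were kept, and the 5′ ends of their transcripts were read on the 10x Genomics Chromium platform, in which a unique molecular identifier (UMI) marks each captured molecule. The mice were run as 2 independent experiments, each with 1 mouse of either genotype, and the labels do not say which library belonged to which experiment. Neither treatment nor age was given for these mice.

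Cd79a and Cd79b encode the signalling chains that sit beside membrane immunoglobulin, or beside the heavy chain and surrogate light chain in the pre-B cell receptor, and carry the signal into the cell through a tyrosine motif called an ITAM in each tail. The Src family kinases Lyn and Blk phosphorylate these tyrosines, Syk binds the phosphorylated motif, and Blnk is the adaptor on which Syk and Btk meet to activate phospholipase C. Cd22 and Cd72 are inhibitory receptors whose tails hold ITIM motifs, which recruit the phosphatase Shp-1 after Lyn has phosphorylated them. Syk, Lyn and Btk also work in myeloid cells, where they act behind Fc receptors, integrins and lectins.

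The sequences that make these genes a signalling unit are shown first, because the activating and the inhibitory receptors are told apart by them. A script found the motifs in the coding sequence of the principal GENCODE transcript (GRCm38), and they are printed 5′ to 3′ on the coding strand with the codons of the motif tyrosines in capitals.
Cd79a ITAM (chr7:24901296-24901469, plus strand): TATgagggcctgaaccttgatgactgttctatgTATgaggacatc
Cd79b ITAM (chr11:106311867-106312012, minus strand): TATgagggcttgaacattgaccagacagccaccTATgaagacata
Each ITAM is encoded by 15 codons split over 2 exons, with tyrosines at codons 182 and 193 of 220 in Cd79a and at codons 195 and 206 of 228 in Cd79b. 31 of the 45 bases are the same in both genes, and 10 of the 15 codons encode the same residue. The ITIM stretches of the inhibitory receptors hold 1 tyrosine each. They are labelled by a match to a sequence pattern alone, and whether each of them recruits Shp-1 was not tested.
Cd22 ITIM, tyrosine codon 783 (chr7:30867494-30867511, minus strand): gttagtTATgccatcttg
Cd22 ITIM, tyrosine codon 817 (chr7:30867033-30867050, minus strand): gtcactTACtcggtgata
Cd22 ITIM, tyrosine codon 843 (chr7:30866600-30866617, minus strand): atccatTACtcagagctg
Cd22 ITIM, tyrosine codon 863 (chr7:30866540-30866557, minus strand): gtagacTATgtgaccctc
Cd72 ITIM, tyrosine codon 7 (chr4:43454498-43454515, minus strand): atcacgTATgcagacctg
Cd72 ITIM, tyrosine codon 39 (chr4:43454306-43454323, minus strand): ctcaccTACgagaatgtg
The Cd22 stretches lie at the end of a protein of 868 codons, and those of Cd72 at the start of a protein of 354 codons, where its intracellular part is. The same pattern also matched at codon 5 of Cd22 and at codons 95 and 118 of Cd72, away from the stretches shown, and these matches are not printed. The 9 genes map to chromosomes 7 (Cd79a, chr7:24897381-24902197; Cd22, chr7:30865402-30880342), 11 (Cd79b, chr11:106311341-106314762), 4 (Cd72, chr4:43446462-43454628, and Lyn, chr4:3678115-3813122), 19 (Blnk, chr19:40928927-40994535), X (Btk, chrX:134542336-134583570), 13 (Syk, chr13:52583173-52648792) and 14 (Blk, chr14:63372836-63417037).

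Promoters were at hand for 6 of the 9 genes (RefSeq, GRCm38.p6, 250 bases before to 50 after each start site), and motifs of factors known in B cells were searched on both strands. The octamer ATTTGCAT was found in Blnk alone, 130 bases before the start site, and in 1.74% of all promoters. The EBF core CCCNNGGG was found in Cd22 alone, and in 13.7% of promoters. The E-box CAGGTG was found in Cd79a, Cd22, Blnk and Syk (in both of the Syk start sites) and in 20.2% of promoters, and the Ets core GGAAGT in Cd79a, Cd72, Blnk and 1 of the Syk start sites, and in 23.8% of promoters. No match overlapped a match of another motif, and Btk held none of the 4. A window of 30 bases is printed for each of 3 motifs, on the strand of the gene and with the match in capitals.
Blnk octamer (chr19:40994333-40994362, minus strand): tactggaagggATTTGCATgcccaataagg
Cd22 EBF core (chr7:30879058-30879087, minus strand): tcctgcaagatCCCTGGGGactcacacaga
Cd79a E-box (chr7:24897331-24897360, plus strand): ttgtggccagccCAGGTGcagggcagttcc
These letters describe the windows and are not a record of binding.

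Between 8895 and 10781 cells per library passed the filters, with a median of 1759 to 3618 UMIs per cell. Cells were placed in 14 classes by marker genes that included none of the 9 genes, and 11.7% to 16.4% of cells stayed unassigned. B-lineage cells were split into 5 stages: surrogate light chain-positive cells (SLC+, with Vpreb1 or Igll1), cycling pre-B cells, small pre-B cells, immature B cells (Ms4a1 without Ighd and Fcer2a) and mature B cells (Ighd or Fcer2a). The SLC+ gate had priority over the cell cycle gate. SLC+ cells were thus not filtered on cell cycle genes, and cycling pre-B cells were the cycling cells that did not meet the SLC+ gate. Small pre-B cells were those outside the SLC+ and cycling stages with no UMI of Ms4a1, Ighd, Fcer2a or H2-Aa. They are thus set by absence, as are immature B cells with regard to Ighd and Fcer2a. How many later cells of low depth fell among the small pre-B or immature B cells was not tested. A further 465 and 375 B-lineage cells in the TLR9-/- and 819 and 644 in the WT libraries met no stage gate and were left out. They held Ighd or Fcer2a below the mature limit, or H2-Aa without Ms4a1. The median UMI count per cell ran from 2713 to 7079.5 in SLC+ cells and 2277 to 4290.0 in cycling pre-B cells to 846 to 1389 in small pre-B cells, 1081 to 1578 in immature and 1063 to 1734 in mature B cells, so depth changed together with stage. Tlr9, the targeted gene, gave 33 and 38 UMIs in TLR9-/- marrow and 78 and 81 in WT, or 0.838 and 0.703 against 3.11 and 2.38 unscaled CPM (UMIs of a gene per 1000000 UMIs, here over all classes), lower in both TLR9-/- libraries but not absent. The reads of this assay come from the 5′ end, and whether that end lies in the deleted part of Tlr9 is not given. Pairs of libraries shared 118 to 203 cell barcodes.

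The first comparison followed the 9 genes along B-cell development, with UMIs summed for each library and stage and a library block in the fit. At the step from cycling to small pre-B cells all 9 genes rose in the main fit, 6 of them also when every cell was thinned to 1000 UMIs. With another scaling (RLE) or without the filter on low counts, 8 were called. With gates of 5 UMIs 7 were called, and with 1 library left out 7 or 8. Syk and Blnk then fell in immature B cells and Cd72 fell in mature B cells. Cd22 rose at each of the 3 last steps, the last of them not called when cells were thinned to 1000 UMIs. A level is given as CPM after TMM scaling across all class sums, with the 2 TLR9-/- libraries before the 2 WT libraries. A change is the log2 fold change ± SE of the edgeR quasi-likelihood fit, called at a Benjamini-Hochberg adjusted p under 0.05 over all genes tested. The SE was derived as the size of the change over the square root of the F statistic of the test. For some values the p of the test is larger than this SE implies. The 4 libraries are 4 mice, and the library block takes out differences in level between them. Errors and p-values of the steps thus rest on how the stage differences varied between libraries. In the genotype tests within a class, which have no block, they cover the spread between the mice of a genotype. Those mice came from different experiments, so spread between mice and spread between experiments cannot be told apart there.

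From SLC+ to cycling pre-B cells, 6 of the 9 genes rose and 1 fell, where 40.6% of all genes tested were called in either direction. From cycling to small pre-B cells, 9 rose and 0 fell in the main fit, against 49.7% of all genes called. From small pre-B to immature B cells, 2 rose and 2 fell, against 31.2% called. From immature to mature B cells, 1 rose and 3 fell, against 8.43% called. The median log2 fold change of the 9 genes at these 4 steps was 0.45, 1.08, 0.07 and -0.06, beside 0.06, 0.13, -0.008 and -0.007 over all genes. With any 1 library left out, the median over all genes at the second step was 0.015 to 0.026. At 1000 UMIs per cell, where the gates were applied again, the counts of risen and fallen genes were 3 and 2, 6 and 0, 3 and 2 and 0 and 1. Without the library block the calls of Btk at the first step, of Cd79a at the third, and of Cd79b, Cd22 and Lyn at the fourth were lost.

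**Figure D1:**
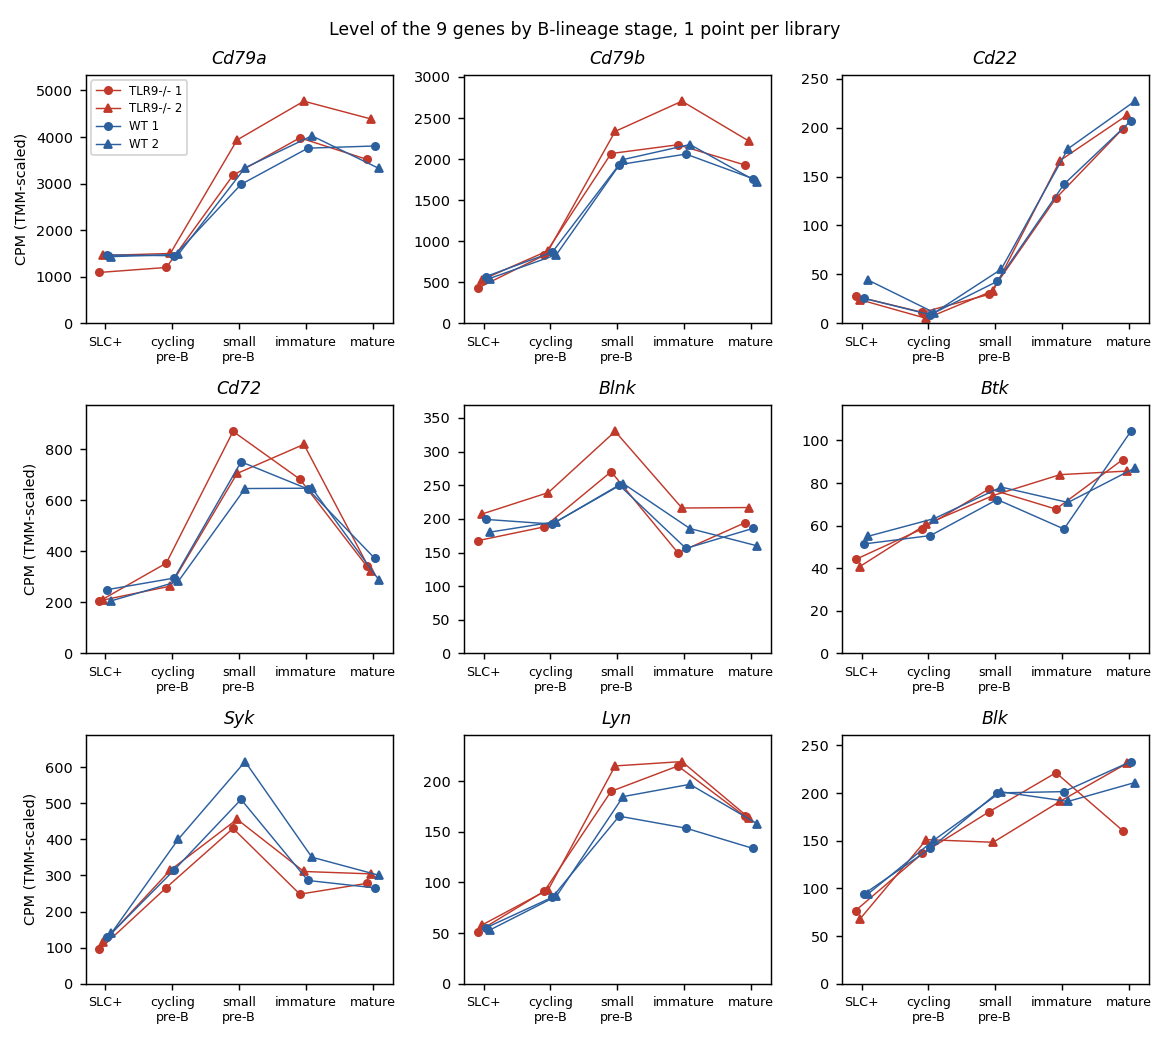
TMM-scaled CPM (vertical axis, linear from 0) of each of the 9 genes in the 5 B-lineage stages (horizontal axis), with 1 point and line per library, TLR9-/- in red and WT in blue. Cd79a, Cd79b and Lyn step up between cycling and small pre-B cells, Syk and Blnk peak in small pre-B cells, and Cd72 falls in mature B cells. Cd22 goes from 30.5 CPM in SLC+ cells to 8.91 CPM in cycling pre-B cells and climbs to 211 CPM in mature B cells (means of 4 libraries). The cycling value rests on 16, 4, 21 and 24 UMIs.

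Cd79a, the Igα chain, was at 1092, 1457, 1467 and 1431 CPM in SLC+ cells and at 1198, 1499, 1451 and 1479 CPM in cycling pre-B cells, 2 ranges that overlapped. It then reached 3179, 3937, 2984 and 3340.4 CPM in small pre-B cells, above every cycling value (1.26 ± 0.08, adjusted p = 2.74e-12). In immature B cells the level was 3983, 4769.7, 3761 and 4026 CPM, a smaller rise of 0.32 ± 0.08, adjusted p = 0.00216. Mature B cells held 3522, 4389, 3807 and 3328 CPM, within the range of the 2 stages before (-0.14 ± 0.08, adjusted p = 0.305). The step from SLC+ to cycling cells gave 0.05 ± 0.08, adjusted p = 0.668 for Cd79a, and -0.55 ± 0.09, adjusted p = 2.94e-05 when every cell was thinned to 1000 UMIs, gated again and summed, a setting in which depth, cells and gates all change.

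Cd79b, the Igβ chain, rose at both of the first steps. It was at 427, 527, 568 and 545 CPM in SLC+ cells and 829, 886, 867 and 835 CPM in cycling pre-B cells, with no overlap (0.72 ± 0.08, adjusted p = 1.36e-07). At 1000 UMIs per cell this first rise was 0.05 ± 0.10, adjusted p = 0.779 and no longer called. Small pre-B cells held 2068, 2337, 1932 and 1994 CPM, above every cycling value (1.29 ± 0.08, adjusted p = 3.72e-12). The immature level was 2174, 2705, 2061 and 2177 CPM (0.15 ± 0.08, adjusted p = 0.170, and 0.24 to 0.25 with adjusted p of 0.0318 to 0.0485 without TLR9-/- 1, WT 1 or WT 2 in turn). Mature B cells were slightly lower at 1929, 2221, 1763 and 1727 CPM (-0.26 ± 0.08, adjusted p = 0.0434). That call was lost at 1000 UMIs per cell, and also without any 1 of the 4 libraries (-0.29 to -0.24, adjusted p of 0.0503 to 0.142).

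The Src family kinases rose before the small pre-B stage. Lyn was at 51.1, 57.7, 55.0 and 52.9 CPM in SLC+ cells, 91.3, 92.9, 85.3 and 86.3 CPM in cycling pre-B cells and 189.9, 215, 165 and 185 CPM in small pre-B cells. The 3 ranges were separate and both steps were called (0.72 ± 0.09 and 1.08 ± 0.09, adjusted p = 8.91e-07 and 4.86e-10), the first of them not at 1000 UMIs per cell (0.44 ± 0.17, adjusted p = 0.0605). Immature B cells were at 215, 219, 153 and 197 CPM and mature B cells at 165, 164, 134 and 158 CPM, with the lower value in mature cells of each library (-0.34 ± 0.09, adjusted p = 0.0200). That fall was not called at 1000 UMIs per cell, nor without TLR9-/- 1, TLR9-/- 2 or WT 2 in turn (-0.36 to -0.31, adjusted p of 0.0938 to 0.130).

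Blk, a Src kinase found mainly in B cells, went from 76.7, 67.4, 93.8 and 93.8 CPM in SLC+ cells to 137, 151, 142 and 151 CPM in cycling pre-B cells, again without overlap (0.79 ± 0.11, adjusted p = 2.76e-06). Its small pre-B level of 180.3, 148, 200.1 and 201 CPM overlapped the cycling range in TLR9-/- 2 (0.36 ± 0.11, adjusted p = 0.00945), and the call was lost without TLR9-/- 1, WT 1 or WT 2 in turn (0.18 to 0.23, adjusted p of 0.156 to 0.312). Immature and mature B cells held 191 to 221 CPM and 161 to 233 CPM over the 4 libraries, and neither later step was called (0.15 ± 0.11 and 0.08 ± 0.11).

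Syk, the kinase that binds the phosphorylated ITAM, rose and then fell, with its peak in small pre-B cells. SLC+ cells held 95.0, 115, 129 and 140.4 CPM, cycling pre-B cells 266, 315, 315 and 400.4 CPM and small pre-B cells 430.3, 456, 511 and 616 CPM. Every library rose at both steps (1.43 ± 0.09, adjusted p = 7.05e-12, then 0.65 ± 0.08, adjusted p = 7.27e-07). Immature B cells were back at 248, 311, 286 and 351 CPM, lower than small pre-B cells in each library (-0.74 ± 0.09, adjusted p = 4.41e-07), and mature B cells at 278, 304, 266 and 301 CPM were in the same range (-0.06 ± 0.09, adjusted p = 0.783). These 3 calls held at 1000 UMIs per cell and without any 1 library.

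Blnk, the adaptor of Syk and Btk, was present from the start and peaked at the same stage as Syk. It was at 168, 207, 199 and 180.2 CPM in SLC+ cells and 188, 239, 192 and 196 CPM in cycling pre-B cells (0.10 ± 0.08, adjusted p = 0.338), and the first step turned to -0.66 ± 0.12, adjusted p = 3.89e-05 at 1000 UMIs per cell. Small pre-B cells held 270.0, 330.0, 250.3 and 253 CPM (0.44 ± 0.09, adjusted p = 0.000169, and 0.29 ± 0.12, adjusted p = 0.0570 at 1000 UMIs). The immature level of 149.6, 216, 156 and 186 CPM was lower in every library (-0.62 ± 0.09, adjusted p = 1.09e-05), and mature B cells at 160.1 to 217 CPM did not differ beyond the error (0.07 ± 0.10).

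Btk, the Tec family kinase downstream of Syk, changed in small steps. Its level was 44.1, 40.7, 51.4 and 55.0 CPM in SLC+ cells, 58.5, 60.7, 55.4 and 63.4 CPM in cycling, 77.3, 74.2, 72.3 and 78.1 CPM in small pre-B, 67.8, 84.0, 58.4 and 70.9 CPM in immature and 91.0, 85.6, 104 and 87.1 CPM in mature B cells. The first 2 steps were called (0.29 ± 0.11, adjusted p = 0.0377, and 0.36 ± 0.12, adjusted p = 0.0155). Both calls were lost without any 1 of the 4 libraries, with values of 0.18 to 0.32 (adjusted p of 0.0558 to 0.251) and 0.23 to 0.27 (adjusted p of 0.0806 to 0.216), and the first reversed at 1000 UMIs per cell (-0.17 ± 0.19, adjusted p = 0.561). The last step gave 0.38 ± 0.13, adjusted p = 0.0734.

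The inhibitory receptors took separate paths. Cd22, a sialic acid-binding lectin, was at 27.6, 24.2, 25.6 and 44.4 CPM in SLC+ cells, which rested on 60 to 232 UMIs per library. In cycling pre-B cells it was at 11.1, 4.95, 8.74 and 10.8 CPM, lower in every library (-1.73 ± 0.19, adjusted p = 1.39e-07), but on only 16, 4, 21 and 24 UMIs, and at 1000 UMIs per cell the value was 0.32 ± 0.35, adjusted p = 0.557. It rose to 29.6, 33.3, 42.8 and 55.2 CPM in small pre-B cells (2.16 ± 0.21, adjusted p = 8.03e-09) and to 128, 166, 142 and 178 CPM in immature B cells (1.91 ± 0.15, adjusted p = 4.21e-10). The immature values were above every small pre-B value, and both rises held at 1000 UMIs and without any 1 library. Mature B cells held the highest level, 199, 213, 207 and 227 CPM (0.46 ± 0.12, adjusted p = 0.0184). That call was lost at 1000 UMIs per cell, and also without TLR9-/- 1 or WT 1 (0.41 to 0.43, adjusted p of 0.0867 to 0.0868).

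Cd72, a C-type lectin, rose at both of the first steps and fell at the last. The level was 205, 209.8, 250.3 and 207 CPM in SLC+ cells and 354, 264, 295 and 283 CPM in cycling pre-B cells (0.45 ± 0.10, adjusted p = 0.000613). It reached 870.2, 705, 751 and 646 CPM in small pre-B cells, above all earlier values (1.32 ± 0.10, adjusted p = 6.68e-11), and 683, 819, 644 and 648 CPM in immature B cells (-0.07 ± 0.10, adjusted p = 0.652). In mature B cells it was down to 343, 323, 373 and 289 CPM, below every immature value (-1.08 ± 0.10, adjusted p = 1.27e-07). That fall held at 1000 UMIs per cell (-1.17 ± 0.11, adjusted p = 2.7e-09) and without any 1 library, at -1.18 to -0.99. At this last step Cd22 had a positive and Cd72 a negative change.

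**Figure D2:**
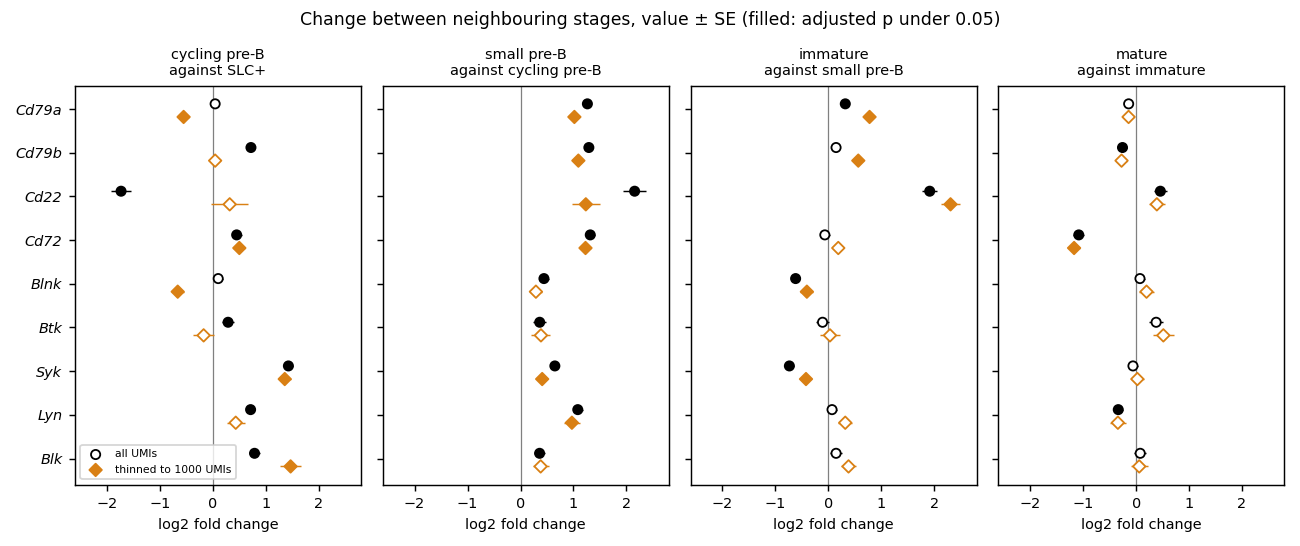
Log2 fold change ± SE (horizontal axis) of the 9 genes (vertical axis) at the 4 steps between neighbouring stages, from all UMIs (black circles) and from cells thinned to 1000 UMIs before gating (orange diamonds), filled where the adjusted p was under 0.05. At the step from cycling to small pre-B cells all values are positive at both depths, and at the first step Cd22, Cd79a, Blnk and Btk lie on opposite sides of 0 at the 2 depths.

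The same steps were read cell by cell after thinning each cell to 1000 UMIs, which takes away the difference in depth but leaves out shallower cells, so that 305 of 877, 289 of 337, 368 of 1362 and 585 of 840 small pre-B cells and 649 of 704, 251 of 254, 791 of 893 and 777 of 815 SLC+ cells were used in the 4 libraries. Cd79a was then seen in 74.7% to 82.2% of SLC+ cells and 94.8% to 98.2% of mature B cells over the 4 libraries, and Cd79b in 48.1% to 54.2% and 82.4% to 91.9%. In small pre-B cells the shares with a UMI, as the mean of 4 libraries ± SD, were 94.3 ± 2.93% for Cd79a, 86.8 ± 6.00% for Cd79b, 19.5 ± 2.52% for Lyn, 19.4 ± 2.44% for Blk, 42.8 ± 6.34% for Syk, 7.99 ± 1.24% for Btk, 27.7 ± 5.16% for Blnk, 55.6 ± 3.04% for Cd72 and 4.46 ± 1.31% for Cd22. T cells, which should lack most of these genes, gave 0% to 5.17% for Cd79a, 1.72% to 2.42% for Cd79b, 2.41% to 3.81% for Cd72, 0% to 1.72% for Blk, 0% to 0.346% for Syk and 0% for Blnk, Btk and Cd22, at a median of 1688 to 2298 UMIs per cell. With 289, 196, 83 and 58 T cells of at least 1000 UMIs, a share of 0 allows up to 1.04%, 1.53%, 3.61% and 5.17% (3 cells of the total, counting error only). Mean counts of genes seen per cell, out of 9, ran from 1.97 to 2.23 in SLC+ cells and from 3.30 to 3.77 in small pre-B cells. A Cd79a and a Cd79b UMI were found together in 38.4% to 47.1% of SLC+ cells, 48.7% to 51.4% of cycling, 73.1% to 91.0% of small pre-B, 83.5% to 93.8% of immature and 81.1% to 90.1% of mature B cells.

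Around the 9 genes, 45 further genes of the pathway were listed, and 41 were tested between stages. At the 4 steps 18, 19, 18 and 4 of them rose and 9, 3, 5 and 6 fell, with medians of 0.24, 0.34, 0.34 and 0.10 beside 0.06, 0.13, -0.008 and -0.007 over all genes. The shares called were 65.9%, 53.7%, 56.1% and 24.4%, against 40.6%, 49.7%, 31.2% and 8.43% of all genes, so that of the second step was near the background. From SLC+ to cycling cells, Siglecg (0.98 ± 0.09), an inhibitory lectin related to Cd22, and Dok3 (1.36 ± 0.12), an inhibitory adaptor, rose with Ighm (0.73 ± 0.07), the heavy chain of the receptor itself. From cycling to small pre-B cells Ighm (1.00 ± 0.07) and Ptpn6 (1.37 ± 0.10), which encodes the phosphatase Shp-1, rose together with the 9 genes.

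Ptpn6 rose again in immature B cells (1.69 ± 0.09, adjusted p = 9.17e-13). Of the ITIM-bearing receptors, Cd22 was also higher there, while Cd72 was not (-0.07 ± 0.10, adjusted p = 0.652). Ptpn22 (3.76 ± 0.31), a phosphatase that acts on Src kinases, and Cr2 (5.11 ± 0.43), a complement receptor, rose at that step too. At the last step Cr2 rose (1.64 ± 0.18) and Ighm fell (-0.54 ± 0.07).

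The second question was where else in the marrow these genes were expressed. Lyn, Syk and Btk were spread over myeloid cells, Blnk, Blk and Cd72 were shared with plasmacytoid dendritic cells, and Cd72 also with NK cells and basophils. Cd79a was high only in B-lineage and plasma cells among the 14 classes. Cd79b was highest in the B stages, and its plasma cell values stood apart from the remaining classes on the scaled values only. These levels are a description, with no test between classes. The TMM scaling across classes raised the values of neutrophil lineage and plasma cells to 1.87 and 2.16 times the unscaled CPM, and lowered those of B-stage cells to between 0.817 and 0.912 times.

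Lyn was also found in monocyte, neutrophil and plasmacytoid dendritic cells. Monocyte lineage cells held 186, 172, 173 and 169 CPM, against 165 to 215 CPM in small pre-B cells, and unscaled values of 176 to 194 CPM, all below the 196 to 275 CPM of small pre-B cells. Neutrophil lineage cells held 272, 229, 196 and 208 CPM (143, 116, 110.3 and 114 CPM unscaled), the highest of the 14 classes on the scaled values but not on the unscaled ones. Plasmacytoid dendritic cells (pDC) were at 113, 119, 122 and 98.7 CPM (133, 143, 140 and 121 CPM unscaled). Unscaled, pDC were above neutrophil lineage cells in every library but TLR9-/- 1. Progenitors were at 37.0 to 37.9 CPM, basophils at 28.2 to 42.4 CPM, T cells at 0 to 10.5 CPM and erythroid cells at 6.81 to 8.17 CPM.

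Syk was found in the same myeloid classes, below its small pre-B peak. Neutrophil lineage cells held 265, 204, 209.9 and 228 CPM (139, 103, 118 and 125 CPM unscaled) and pDC 116, 158, 134 and 158 CPM (137, 190, 154 and 194 CPM unscaled). Unscaled, pDC were above neutrophil lineage cells in every library but TLR9-/- 1. Monocyte lineage cells held 76.1, 92.6, 86.2 and 103 CPM, where neutrophil and monocyte values overlapped once unscaled (79.4, 98.4, 90.0 and 107 CPM in monocyte lineage cells). Plasma cells were at 66.4 to 77.9 CPM, NK cells at 35.1 to 71.6 CPM, T cells at 0 to 8.66 CPM and erythroid cells at 8.76 to 12.6 CPM. Unscaled, Syk in plasma cells (29.5 to 36.0 CPM) was below that in NK cells (42.6 to 81.2 CPM) in every library. Btk was found in every myeloid class, with 55.0, 43.2, 62.0 and 76.2 CPM in basophils, 58.1, 61.3, 42.0 and 61.4 CPM in neutrophil lineage cells, 37.2, 37.9, 41.8 and 35.5 CPM in monocyte lineage cells, 36.3, 39.2, 36.3 and 38.8 CPM in progenitors and 29.6, 35.1, 37.1 and 23.7 CPM in pDC. Without scaling, Btk in neutrophil lineage cells was 30.5, 31.0, 23.6 and 33.5 CPM. That was below monocyte lineage cells (38.9, 40.3, 43.7 and 37.0 CPM) and progenitors (37.1, 39.2, 36.6 and 37.0 CPM) in every library. It was also below pDC (34.8, 42.2, 42.5 and 29.1 CPM unscaled) in every library but WT 2. Erythroid cells, at 16.9 to 26.7 CPM, held more Btk than T cells (0 to 1.73 CPM) in every library.

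Blnk, Blk and Cd72 were higher in pDC than in the myeloid classes. Blnk in pDC was 102, 123, 105 and 106 CPM, more than in monocyte lineage cells (5.43 to 10.6 CPM), neutrophil lineage cells (9.54 to 18.1 CPM), erythroid cells (2.04 to 6.20 CPM) or T cells (0 to 1.73 CPM). Blk in pDC was 56.2, 48.0, 39.7 and 49.4 CPM, beside 2.10 to 5.06 CPM in monocyte lineage cells and 2.99 to 13.8 CPM in T cells. Cd72 in pDC was 107, 124, 85.3 and 87.8 CPM. Thinned to 1000 UMIs, 11.6% to 14.2% of pDC had a Blnk UMI, 3.0% to 6.76% a Blk UMI and 8.99% to 15.9% a Cd72 UMI, at a median of 1964 to 3514 UMIs per cell. In the same pDC the 11 B-lineage markers summed to 224, 236, 333 and 313 unscaled CPM with 10 to 11 of 11 detected, and Cd79a was at 68.3, 33.6, 92.9 and 43.4 CPM, whose part in the Blnk and Blk levels was not tested.

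Cd72 was also present in NK cells, at 109, 77.3, 78.9 and 88.3 CPM, on 32, 9, 9 and 5 UMIs from 20 to 119 cells per library. In those cells the 11 B-lineage markers gave 4, 0, 2 and 0 UMIs in all, Cd22 and Blk gave 0 in every library, and Cd79a gave 0 to 26.3 CPM. Pax5, Igll1, Ighd and Fcer2a were at 0 in all 4 NK sums. A cell was kept as NK only if its NK list UMIs were more than 2 times those on the B-lineage list. The gate thus limited these marker sums, as it did in the other classes outside the B lineage. Whether RNA of B cells had a part in the Cd72 level of NK cells was not tested. Basophils held Cd72 at 63.0, 60.0, 78.1 and 56.4 CPM and T cells at 44.9, 45.0, 14.4 and 25.8 CPM, while erythroid cells were at 1.95 to 10.0 CPM. By the mean of 4 libraries the order of Cd72 levels outside the B lineage was pDC, NK cells, basophils, T cells and neutrophil lineage cells. The ranges of pDC and NK cells overlapped, as did those of NK cells and basophils (on the scaled values only) and those of T cells and neutrophil lineage cells, while basophils and T cells did not overlap.

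**Figure D3:**
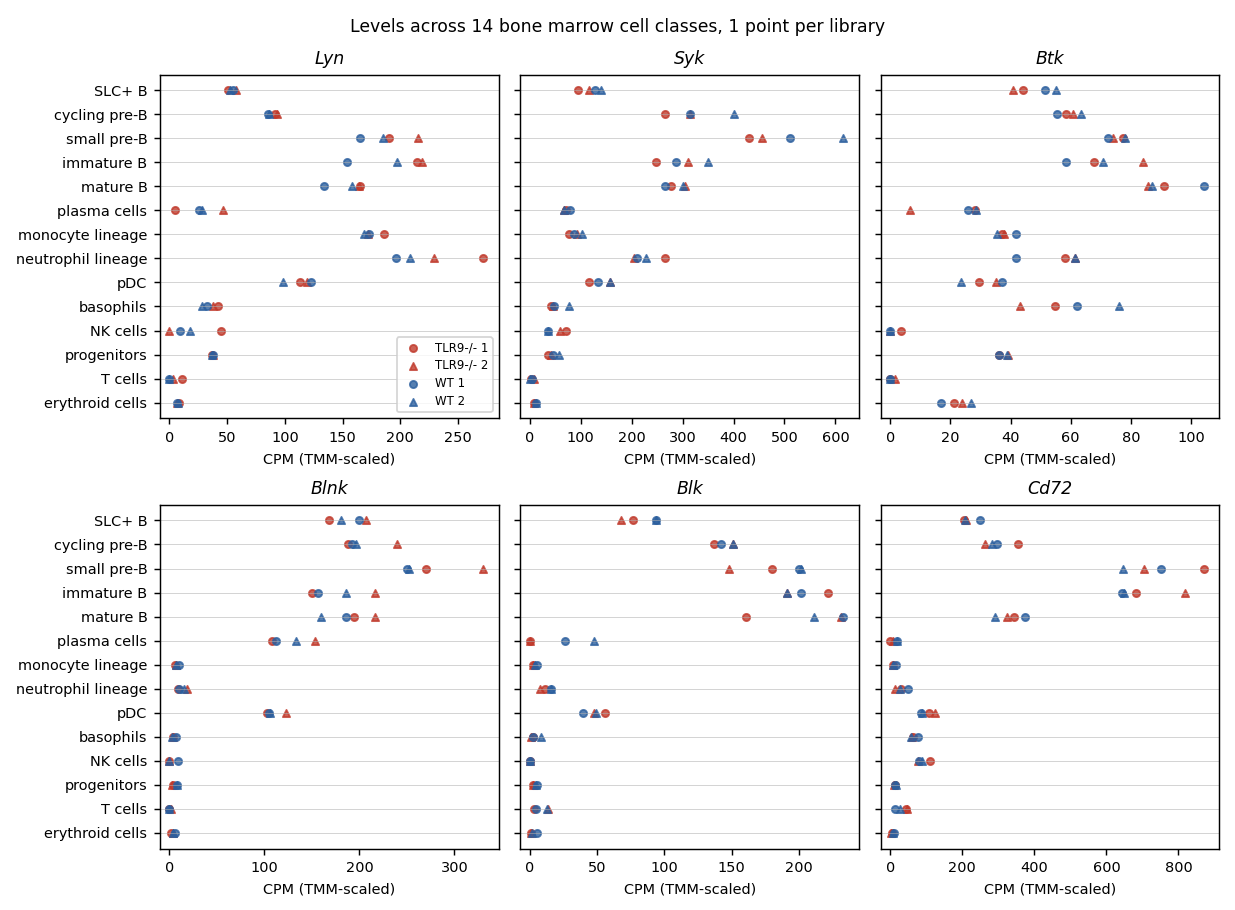
TMM-scaled CPM (horizontal axis, linear) of Lyn, Syk, Btk, Blnk, Blk and Cd72 in the 14 cell classes (vertical axis), 1 point per library, TLR9-/- in red and WT in blue. Lyn and Syk extend into neutrophil, monocyte and pDC classes, Btk into nearly all classes but NK and T cells, Blnk and Blk into pDC, and Cd72 into pDC, NK cells and basophils.

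Plasma cells, which secrete immunoglobulin, held both signalling chains, Blnk and Syk, with few or no UMIs of Cd22, Cd72 and Blk. Cd79a was at 1395, 1489.6, 1376 and 1632 CPM (646, 661, 636 and 792 CPM unscaled), in 20 to 52 cells per library. Cd79b was at 244, 426, 407 and 351 CPM (113, 189, 188 and 170 CPM unscaled). Unscaled Cd79b in pDC (105, 91.5, 134 and 102 CPM) and basophils (66.0, 52.0, 116 and 136 CPM) overlapped the plasma cell range. Blnk was at 108, 153, 113 and 133 CPM (50.0, 67.9, 52.0 and 64.5 CPM unscaled), on 23, 23, 13 and 14 UMIs. Syk was at 70.4, 66.5, 77.9 and 66.4 CPM (32.6, 29.5, 36.0 and 32.2 CPM unscaled), on 15, 10, 9 and 7 UMIs. Lyn was at 4.70 to 46.5 CPM and Btk at 6.65 to 28.5 CPM. Cd22 gave 1 UMI in TLR9-/- 1 and 0 in the others, Cd72 gave 0, 1, 2 and 2, and Blk gave 0, 0, 3 and 5. These cells were deep, with medians of 6587 to 17602 UMIs per cell, against 1063 to 1734 in mature B cells.

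Low levels of the chains were seen in the other classes. Cd79a was at 15.9, 17.1, 67.0 and 40.4 CPM in erythroid cells, 27.1, 35.0, 56.1 and 45.2 CPM in monocyte lineage cells and 4.49, 22.5, 38.3 and 45.1 CPM in T cells. The neutrophil lineage value was higher, 156, 133, 227 and 165 CPM (82.0, 67.0, 128 and 90.1 CPM unscaled). Set against 2984 to 3937 CPM in small pre-B cells these levels are low, and whether free RNA or mixed droplets gave them was not tested, since no doublet caller was run. In neutrophil lineage cells the 11 B-lineage markers summed to 193, 117, 342 and 196 unscaled CPM.

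Over the 56 sums of class and library, Cd79b was the gene most like Cd79a among all genes outside the gates (Pearson r = 0.97 of log2(CPM + 10)), followed by Gm30211 (0.96), Syvn1 (0.95) and, as the fifth, Ralgps2 (0.91). For Syk these were Marcks (0.88), Wdfy4 (0.88), Plcg2 (0.88), which encodes the phospholipase C of the pathway, Arhgap24 (0.87) and Myo1c (0.86). Among the 9 genes themselves Syk and Lyn were at 0.86, and Cd79a and Lyn, the loosest pair with Cd79a, at 0.52. The sums share 4 libraries and their depths, so these values only describe the pattern over classes.

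The third comparison asked whether TLR9-/- marrow differed from WT in these genes, class by class, with 2 libraries in each group. None of the 9 genes was called in any of the 8 classes tested, in 71 tests (edgeR, adjusted p under 0.05). Of these, 4 had an unadjusted p under 0.05. DESeq2 also called 0. The share of all genes called was 0.525% in SLC+ cells, 0.258% in cycling pre-B, 0.663% in small pre-B, 0.18% in immature and 0.598% in mature B cells, 0.384% in monocyte lineage cells, 0.175% in neutrophil lineage cells and 0.0999% in pDC, where Cd22 was too low to be tested. An exact permutation test of 2 against 2 libraries cannot go below p = 0.333, so none was run for single genes.

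Within the B stages the fitted log2 fold changes (TLR9-/- over WT) were -0.43 to 0.01 in SLC+ cells, -0.26 to 0.17 in cycling pre-B cells, -0.66 to 0.24 in small pre-B cells, -0.20 to 0.30 in immature and -0.17 to 0.25 in mature B cells. The values of the 2 genotypes did not overlap for 4 of the 9 genes in SLC+ cells, 1 in cycling pre-B, 6 in small pre-B (Cd79b, Cd22, Blnk, Syk, Lyn and Blk), 2 in immature and 3 in mature B cells, where 42.4%, 36.4%, 35.5%, 33.5% and 35.7% of all genes did not overlap. In SLC+ cells 8 of the 9 values were negative, with a median of -0.22 beside -0.03 over all genes. Blk there was 76.7, 67.4, 93.8 and 93.8 CPM, lower in both TLR9-/- libraries (-0.37 ± 0.16, unadjusted p = 0.0458, adjusted p = 0.479). Cd22 in small pre-B cells was 29.6, 33.3, 42.8 and 55.2 CPM, also without overlap (-0.66 ± 0.29, unadjusted p = 0.0345, adjusted p = 0.732), on 22 to 70 UMIs per library. In mature B cells, which express the assembled receptor, Cd22 was at 199, 213, 207 and 227 CPM, with WT and TLR9-/- values interleaved.

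Whether a genotype difference changed between small pre-B and mature B cells was tested as an interaction. Again 0 of the 9 genes were called, with 0.123% of all genes called. Cd22 (0.63 ± 0.29, unadjusted p = 0.0427, adjusted p = 0.662) and Syk (0.40 ± 0.15, unadjusted p = 0.0152, adjusted p = 0.500) had the smallest p. Syk was 430.3, 456, 511 and 616 CPM in small pre-B cells, lower in both TLR9-/- libraries, and 278, 304, 266 and 301 CPM in mature B cells, where the groups overlapped. For Cd22 the value was -0.04 at 1000 UMIs per cell.

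In monocyte lineage cells 8 of the 9 values were negative, with a median of -0.41 beside -0.01 over all genes, and none was called. Cd79a was 27.1, 35.0, 56.1 and 45.2 CPM, below both WT values in each TLR9-/- library (-0.71 ± 0.20, unadjusted p = 0.00629, adjusted p = 0.380), and Blk was 2.30, 2.10, 5.06 and 3.92 CPM (-1.03 ± 0.37, unadjusted p = 0.0235, adjusted p = 0.635). Cd79a, Cd79b, Blnk and Blk, 4 of the 9 genes, did not overlap between the groups, where 37.0% of all genes did not overlap either. All 11 B-lineage markers were detected in these cells and summed to 73.1 and 62.1 unscaled CPM in TLR9-/- marrow and 161 and 108 in WT marrow. Cd79a in erythroid cells (15.9, 17.1, 67.0 and 40.4 CPM) and in progenitors (33.1, 20.9, 61.3 and 70.6 CPM) was lower in the same libraries, and B-stage cells gave 14.01% and 8.39% of all UMIs in the TLR9-/- and 27.4% and 24.3% in the WT libraries. Their part in the monocyte values was not tested. The kinases that monocytes use, Lyn (186, 172, 173 and 169 CPM), Syk (76.1, 92.6, 86.2 and 103 CPM) and Btk (37.2, 37.9, 41.8 and 35.5 CPM), overlapped between the groups.

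Neutrophil lineage cells ranged from -1.19 to 0.22 and pDC from -0.48 to 0.40. Cd22 in neutrophil lineage cells, the lowest of these values, rested on 0, 23, 9 and 15 UMIs and ran from -6.77 to -0.56 when 1 library was left out, the lowest without TLR9-/- 2. The genotypes did not overlap for 5 of the 9 genes in neutrophil lineage cells and 1 of 8 in pDC, against 35.2% and 35.4% of all genes. Cd72 in neutrophil lineage cells was 29.5, 12.4, 49.0 and 27.5 CPM, on 34, 35, 28 and 47 UMIs. Without TLR9-/- 1, which leaves 1 TLR9-/- library, its value was -1.62 ± 0.42. That was the only call of any of the 9 genes under an alternative setting of the genotype tests. The 11 B-lineage markers in these cells summed to 193 and 117 unscaled CPM in TLR9-/- and 342 and 196 in WT marrow. Their part in the Cd72 value was not tested. Cd72 in pDC was 107, 124, 85.3 and 87.8 CPM, higher in both TLR9-/- libraries (0.40 ± 0.18, unadjusted p = 0.0571, adjusted p = 0.903). Lyn, Syk and Btk in pDC overlapped between the genotypes.

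Of the 45 further pathway genes, 36 to 42 were tested in a class and 0 were called by edgeR in the main fits of the 8 classes or in the interaction. Calls under other settings, with the replicate number as a block among them, are given at the end. Of the 307 tests in the classes, 13 had an unadjusted p under 0.05, and DESeq2 called 0. Among the first 3 by p were Prkcb, Ptpn22 and Inpp5d in SLC+ cells, Pik3ap1 and Plcg1 in cycling pre-B, Pik3ap1, Grb2 and Pag1 in small pre-B, Lck, Bcl10 and Pik3r1 in immature and Vav2, Ptpn22 and Tec in mature B cells, Lair1, Pik3r1 and Bcl10 in monocyte lineage cells, Rac2 in neutrophil lineage cells, Vav2, Ptpn6 and Pik3cd in pDC, and Tec, Grb2 and Pag1 in the interaction. The smallest p was that of Lck, a Src kinase better known from T cells, in immature B cells (1.65 ± 0.44, unadjusted p = 0.00224, adjusted p = 0.376). Prkcb, the protein kinase C isoform of the pathway, followed in SLC+ cells (-0.57 ± 0.16, unadjusted p = 0.00496, adjusted p = 0.284). Medians of the list lay between -0.09 and 0.08, beside -0.025 to -0.003 for all genes.

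**Figure D4:**
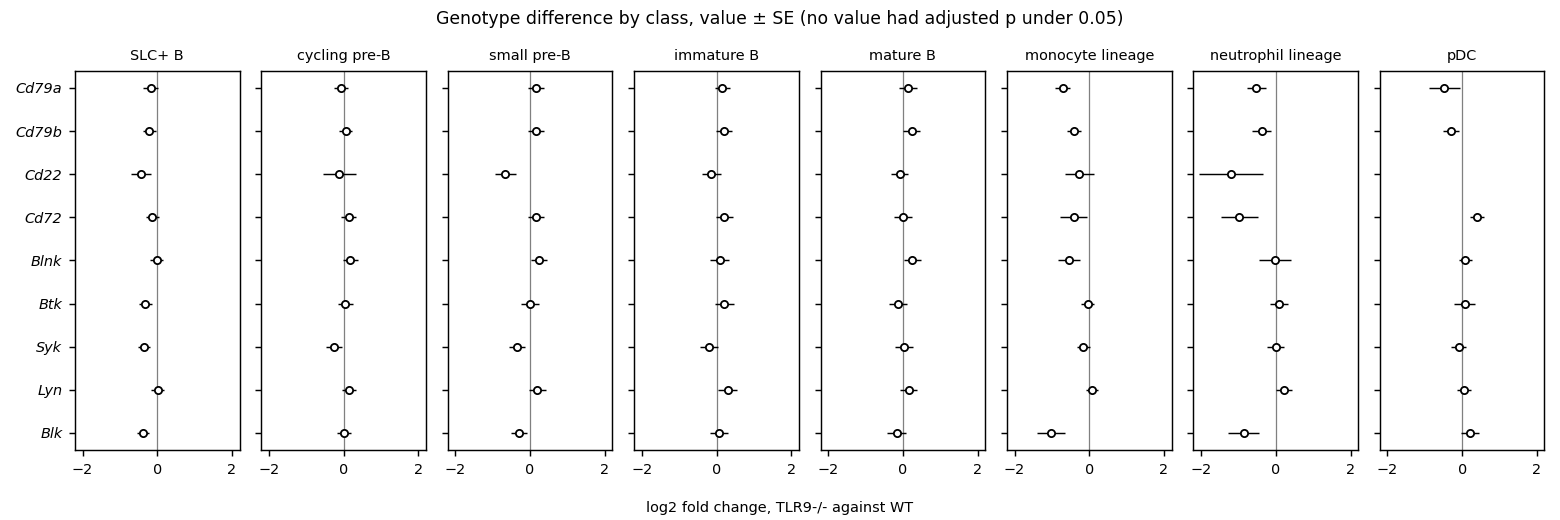
Log2 fold change ± SE, TLR9-/- against WT (horizontal axis), of the 9 genes (vertical axis) in the 8 classes tested, with 2 libraries per genotype. No value was called (all circles open), B-stage values lie within -0.66 and 0.30, and Cd22 has no value in pDC.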

How the data were processed

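Gene-by-cell matrices of UMI counts, 1 for each of the 2 TLR9-/- and 2 WT libraries, were used as deposited by the authors. Per the submitters' processing notes, Seurat 2.3.4 was used, and the matrices hold unnormalized counts. Cell Ranger 3.0.1 is the version named in the matrix header. Which genome build was used for counting is not given in the sources used here.

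Cells with 200 to 10000 genes and at most 10% mitochondrial UMIs were kept (39167 of 40545). The study's methods print a mitochondrial limit well under 1 percent, which was read here as a fraction of 1. A cell joined a class when at least 3 UMIs (10 for plasma cells) fell on the marker list of the class and these were more than 2 times those on any other list. B-lineage cells were divided by surrogate light chain genes (at least 2 UMIs), cell cycle genes (at least 3 UMIs), Ms4a1, Ighd or Fcer2a (at least 2 UMIs for mature B cells), and H2-Aa. No doublet caller was run, and cells with mixed lists stayed unassigned. The counts were summed per library and class (31435 cells, 12241 of them in B stages), and tested with the quasi-likelihood test of edgeR 4.0.16 (R 4.3.3), with TMM scaling and the filterByExpr filter, two-sided, in classes with at least 10 cells in each library. The stage steps were fitted in 1 model with a library block, and the interaction in a separate model that added genotype by stage. Adjusted p-values are over all genes tested. The scripts were tested on simulated data.

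Alternatives were DESeq2 1.42.0, RLE scaling, no filter on low counts, gates of 5 UMIs, cells thinned to 1000 UMIs, at most 5% mitochondrial UMIs, the replicate number as a block, no library block, and leaving out each library. Intervals and errors do not cover the gating. Further pathway genes were named where their adjusted p was under 0.05 in a genotype comparison, or else for the 3 smallest p per comparison. Some genes that this rule or the correlations would name are not reported here. The 9 genes, the marker lists and the pathway list were chosen with earlier results of these data known. Motifs were searched in GENCODE coding sequences and RefSeq promoters with Python 3.11.15.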

Additional observations from a re-analysis of the deposited data

How the results depend on the processing

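The number of genes called between genotypes depended strongly on the processing, while the 9 genes stayed uncalled under every alternative tried except Cd72 in neutrophil lineage cells. The main counts over all genes were 52 (SLC+), 21 (cycling pre-B), 49 (small pre-B), 13 (immature B), 45 (mature B), 41 (monocyte lineage), 14 (neutrophil lineage) and 8 (pDC). Leaving out 1 library gave, in the same order, 17 to 146, 30 to 54, 65 to 121, 0 to 61, 19 to 183, 62 to 129, 11 to 117 and 6 to 81. Without the filter on low counts they were 253, 108, 119, 73, 185, 101, 134 and 124, where more genes were tested. At 1000 UMIs per cell they were 9, 12, 3, 0, 5, 27 and 6 in the first 7 classes. DESeq2 gave 25 in small pre-B, 22 in mature B, 64 in monocyte lineage, 23 in neutrophil lineage and 16 in pDC, and a limit of 5% mitochondrial UMIs gave 23 in neutrophil lineage cells. Same-numbered libraries of the 2 genotypes deviated together, with correlations of 0.10 to 0.48 over the 8 classes, but the labels do not say that a number marks an experiment. With the replicate number as a block the counts were 467, 119, 188, 136, 7 and 79 in the first 6 classes, 0 of the 9 genes was called, and 3 of the further pathway genes were called, Inpp5d (-0.58) and Prkcb (-0.56) in SLC+ cells and Lck (1.65) in immature B cells. Lck in neutrophil lineage cells without the filter (4.22) and Pag1 in small pre-B cells without TLR9-/- 1 (-2.85) were the only other such calls.

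Between stages the main counts were 3616, 4425, 2783 and 751, and 11 for the interaction. Leaving out 1 library gave 2707 to 3273, 3409 to 3997, 2056 to 2531 and 422 to 576, and 2 to 20 for the interaction. At 1000 UMIs per cell the first 3 counts were 1801, 1907 and 1493 and the interaction 3. The fit without a library block gave 2247 at the first and 279 at the fourth step, and the interaction without the filter gave 104. Of the member changes between stages, 260 values over all alternatives kept direction and call, 40 lost the call, 5 gained it and 19 changed sign. For the genotype differences and the interaction, only a part of the member values was followed over the alternatives. These were the lowest and the highest change of each comparison, and any with an unadjusted p under 0.05 in the main edgeR fit. Under DESeq2, for example, 18 values were followed, where 71 tests were made. Of the values followed, 10 of 219 changed sign. The genotype sign changes named below are among them, and sign changes of the remaining genotype values were not counted. At 1000 UMIs per cell the changes with the opposite sign were, at the first step, Cd79a (-0.55), Cd22 (0.32), Blnk (-0.66) and Btk (-0.17), at the third Cd72 (0.19) and Btk (0.0309), at the fourth Syk (0.0228), and between genotypes Lyn in SLC+ cells (-0.54), Blnk in mature B cells (-0.082) and the Cd22 interaction (-0.0352). With at least 5 UMIs per gate, Cd79a at the first step (-0.00088) and Cd72 at the third (0.0583) changed sign, and without the filter Lyn in SLC+ cells did (-0.0048). Leaving out 1 library moved, across 0, Cd79a at the first step (-0.0181 to 0.0303), Cd72 (-0.0666 to 0.0991) and Btk (-0.0916 to 0.0464) at the third, and Blnk (-0.00767 to 0.18) and Blk (-0.0107 to 0.21) at the fourth. Between genotypes it did so for Cd22 (-0.75 to 0.0306) and Lyn (-0.071 to 0.10) in SLC+ cells, Blnk in cycling pre-B cells (-0.0266 to 0.38), Blk in mature B cells (-0.45 to 0.0336) and Cd79a in pDC (-1.02 to 0.18). The Btk call at the second step was lost with another scaling (RLE), without the filter and at 5 UMIs per gate, that at the first step without the filter and at 5 UMIs per gate, the Blk call at the second step at 5 UMIs per gate and the Lyn call at the fourth step without the filter. Without thinning, 10.0% of small pre-B cells held a Btk UMI and 22.8% a Lyn UMI. The cause of these changes was not tested. With 20 to 52 plasma cells and 20 to 119 NK cells per library, values there cover few molecules.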
